A study of Mus musculus with 14 samples.

Results

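The genes described here are the early growth response factors Egr1, Egr2 and Egr3, their corepressors Nab1 and Nab2, the immediate early response genes Ier2, Ier3 and Ier5, and Tle3. They were found by gene symbol in the annotation of an Affymetrix mouse array, on which a probeset, a set of short probes, reports the RNA of a gene. The 9 genes have 15 probesets, out of 22626 that were tested, and no member probeset carries a second symbol.

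EGR factors are zinc finger proteins whose genes are switched on within minutes by growth factors, serum and stress, mostly through serum response factor (SRF) and the ERK kinase cascade, with no new protein needed. NAB1 and NAB2 bind EGR1 and EGR2 and hold their activity down, and Nab2 is itself an EGR target, so that they form a feedback loop. The IER genes are switched on as fast but share no single function, and TLE3 is a Groucho-type corepressor carried to DNA by TCF, RUNX and HES factors.

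RNA came from B16-F10 cells, a pigmented melanoma line of the C57BL/6J mouse strain grown in RPMI medium with serum, and each of 14 arrays is labelled as a biological replicate. Lipofectamine cells (3 arrays) spent 3 h in Opti-MEM medium with the liposomes, to which no plasmid DNA was added, then 30 min in RPMI with serum. Heat shock cells (3 arrays) were kept at 42.5 °C for 1 h and recovered for 30 min, and benzyl alcohol cells (3 arrays) had 40 mM of this membrane fluidizer for 1 h, with a recovery given as 3 h in one description and 30 min in another. Control cells (5 arrays) were untreated, so the liposomes and the change of medium and serum cannot be told apart, and the 3 comparisons with the control share these 5 arrays.

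Values are log2 signals, on which a difference of 1 is a doubling. Calls of a rise or fall rest on limma, a linear model that shares information on the spread between probesets, with an adjusted p (Benjamini-Hochberg, over all probesets tested) under 0.05. Of 13 melanocyte markers measured, 12 had a mean signal above the median of all probesets, against 1 of 10 fibroblast, 1 of 10 macrophage and 2 of 9 epithelial markers. In bulk RNA, less RNA per cell and fewer cells of a kind cannot be told apart.

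The control arrays were not alike, and this touches Ier2 and Ier3 above all. At 38.7% of all probesets control arrays 1 and 3 did not overlap control arrays 2, 4 and 5, and among the members this held at 6 of 15 probesets. Arrays 1 and 3 were higher for Egr1, Ier2, Ier3 and Tle3 (1419654_at), and lower for Nab2 and Ier5 (1417613_at). No label divides the control arrays this way, and the sets were taken from the signals of these same arrays. An adjusted p from a fit without either set therefore only describes that fit and is no independent evidence of a change. For these probesets, changes with Lipofectamine and heat shock are also given without each set in turn.

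Egr1, the founding member of the family, had the largest rise of the members with Lipofectamine and a small one with heat shock. Its log2 signal (1417065_at) was 10.25, 10.21 and 9.99 in the Lipofectamine arrays, 7.63, 7.48 and 7.47 in the heat shock arrays, and 7.22, 6.93, 7.32, 6.98 and 7.05 in the control arrays. Every Lipofectamine array stood far above every heat shock and control array, and the heat shock arrays lay just above the highest control array.

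The mean was 10.15 ± 0.14 (SD, n = 3) with Lipofectamine and 7.10 ± 0.17 (n = 5) in the control, a rise of 3.05 on the log2 scale or 8.29-fold (SE 0.11, adjusted p = 6.0e-09 by limma). This call held in all 22 alternative analyses, with changes between 2.88 and 3.20. Heat shock gave 7.52 ± 0.09 (n = 3), a rise of 0.43 or 1.34-fold (SE 0.11, adjusted p = 0.0391). That small rise was 0.54 without control arrays 1 and 3 (adjusted p = 0.00121), and 0.25 without control arrays 2, 4 and 5, where it did not pass (adjusted p = 0.29). The call was lost in 13 of 22 alternatives, among them the fit of all 14 arrays (adjusted p = 0.59) and the fits without any 1 of control arrays 2, 4 and 5, heat shock arrays 1, 2 and 3 and Lipofectamine array 1 (adjusted p between 0.0596 and 0.154). Set directly against heat shock, Lipofectamine was higher by 2.63 (6.17-fold, SE 0.123, adjusted p = 4.1e-08), which held in all 22 alternatives.

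Egr2, known as Krox20 and best known for its part in myelination, rose with Lipofectamine as well, although its signal was low. At 1427683_at it was 5.32, 5.67 and 5.61 in the Lipofectamine arrays, 5.12, 4.96 and 4.96 in the heat shock arrays, and 4.81, 5.00, 4.81, 4.75 and 4.75 in the control arrays. The Lipofectamine arrays were above all others of these groups, while the heat shock and control arrays overlapped. This probeset lies at the 15.3 percentile of mean signal over all probesets, and with no detection calls used its level in the control was not shown to be above background. The rise in signal with Lipofectamine was 0.71 (SE 0.103, adjusted p = 0.00244), and the change with heat shock was 0.19 (adjusted p = 0.295). Lipofectamine exceeded heat shock by 0.52 (SE 0.116, adjusted p = 0.0185), a difference that no longer passed in the fit of all 14 arrays (adjusted p = 0.0515) or without heat shock array 2 (0.0862), heat shock array 3 (0.0796) or Lipofectamine array 2 (0.078). The other Egr2 probeset (1427682_a_at) lies at the 1.28 percentile, near the floor. It gave 3.42, 3.64 and 3.45 with Lipofectamine and between 2.94 and 3.29 in the control arrays, a difference of 0.34 that did not pass (adjusted p = 0.0826).

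SRF acts on many immediate early genes through the CArG box, and the bases that hold such boxes ahead of Egr2 are shown because this gene rose. RefSeq (GRCm38.p6) gives Egr2 5 start sites, and in 4 of them the 250 bases before the start hold a CArG box. Some of these windows overlap and share the same box, and the stretches below hold every distinct one. Both stretches below are on the plus strand and run from 79 to 50 bases before a start site, with the CArG box in capitals at 72 to 63 bases before it. In the second, CGTCA, the core of the cAMP response element (TGACG) read on the other strand, is also in capitals.
Egr2 start at 67537566, chr10:67537487-67537516: atcttctCCTTTTTTGGaaagtctcggaga
Egr2 start at 67537869, chr10:67537790-67537819: cctcagtCCATATATGGgcagcgaCGTCAc
Over 32851 promoters of 250 bases, searched on both strands, 1.47% held a CArG box and 17.8% the core TGACG. Such a match describes the letters and does not show that SRF was bound in these cells.

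Egr3, which acts in muscle spindles and lymphocytes, showed no change that passed the test. Its signal (1421486_at) was 8.50, 8.18 and 8.74 in the Lipofectamine arrays, 8.54, 8.65 and 8.58 in the heat shock arrays, and 8.48, 8.46, 8.37, 8.51 and 8.02 in the control arrays. Lipofectamine and control arrays overlapped, with a difference of 0.10 (95% interval −0.19 to 0.39, adjusted p = 0.792). The interval ends far short of the change of Egr1. The heat shock arrays lay just above the highest control array, with a change of 0.22 that did not pass (adjusted p = 0.349). Egr4, the remaining gene of the family, gave 0.04 with Lipofectamine (adjusted p = 0.928) and 0.18 with heat shock (adjusted p = 0.424).

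**Figure D1:**
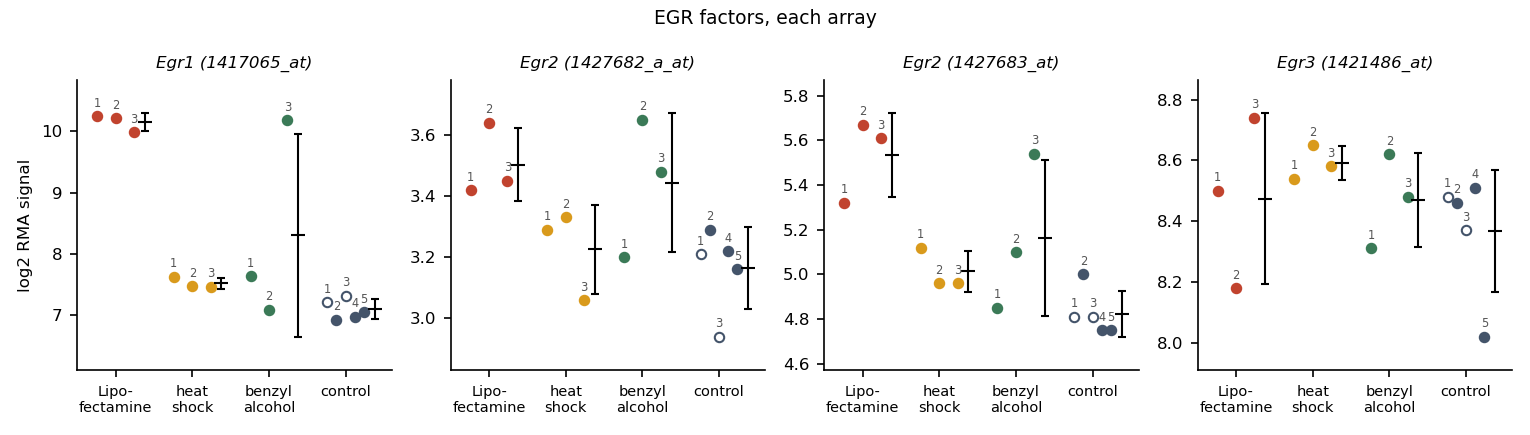
Log2 RMA signal of the 4 Egr probesets (vertical axis, a scale of its own in each panel) in every Lipofectamine, heat shock, benzyl alcohol and control array, with small numbers for the replicate, open circles for control arrays 1 and 3, and a black dash with a bar for each mean ± SD. Egr1 lies between 9.99 and 10.25 in the Lipofectamine arrays and between 6.93 and 7.32 in the control arrays, and benzyl alcohol array 3 (10.18) stands with the Lipofectamine arrays.

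Of the corepressors, Nab1 rose with Lipofectamine at the dimmer of its probesets, and Nab2 showed no change with Lipofectamine or heat shock that passed. Nab1 at 1448781_at was 8.16, 8.05 and 8.21 in the Lipofectamine arrays, 7.62, 7.50 and 7.58 in the heat shock arrays, and 7.86, 7.84, 7.55, 7.85 and 7.70 in the control arrays. The Lipofectamine arrays lay above the control arrays, while the heat shock arrays overlapped the lower end of the control range. The rise over the control was 0.38 (SE 0.0954, adjusted p = 0.0375), and the difference over heat shock 0.57 or 1.49-fold (SE 0.107, adjusted p = 0.0076). The difference over heat shock held in all 22 alternatives. The rise over the control was lost in 13 of 22, including the fits without any 1 of control arrays 2, 4 and 5, heat shock arrays 1, 2 and 3 and Lipofectamine arrays 1 and 3 (adjusted p between 0.0523 and 0.16), and the fits without control arrays 2, 4 and 5 together (0.0698) or with only the 2 groups compared (0.098).

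At the brighter Nab1 probeset (1417624_at) the signal was 9.93, 9.98 and 9.89 with Lipofectamine, 9.66, 9.72 and 10.07 with heat shock, and 9.65, 9.58, 9.89, 9.72 and 9.92 in the control. The groups overlapped and no comparison passed, so the probesets of this gene do not give the same result. The change with Lipofectamine was 0.18 (95% interval −0.07 to 0.43, adjusted p = 0.457). Nab2 (1417930_at) was 7.47, 7.62 and 7.19 with Lipofectamine, 7.34, 7.14 and 7.37 with heat shock, and 6.70, 7.53, 7.34, 7.59 and 7.79 in the control. Control array 1 was by far the lowest of the 14 arrays. The change of Nab2 was 0.04 with Lipofectamine (95% interval −0.38 to 0.46, adjusted p = 0.96) and −0.11 with heat shock (adjusted p = 0.772), and both turned with the control arrays used. Without control arrays 1 and 3 they were −0.21 with Lipofectamine and −0.35 with heat shock (adjusted p = 0.0539), and without control arrays 2, 4 and 5 they were 0.41 with Lipofectamine and 0.26 with heat shock.

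The 250 bases before the Nab1 start are shown because they hold the binding letters of the factors that NAB1 restrains. The EGR site searched was GCGNGGGCG on both strands, which 4.7% of promoters held. In Nab1 it occurs 3 times, from 141, 109 and 38 bases before the start, the first on the other strand, and CGTCA lies between the first and the second. All 4 are in capitals below, on the minus strand and with RefSeq coordinates (GRCm38.p6).
Nab1, chr1:52500449-52500698: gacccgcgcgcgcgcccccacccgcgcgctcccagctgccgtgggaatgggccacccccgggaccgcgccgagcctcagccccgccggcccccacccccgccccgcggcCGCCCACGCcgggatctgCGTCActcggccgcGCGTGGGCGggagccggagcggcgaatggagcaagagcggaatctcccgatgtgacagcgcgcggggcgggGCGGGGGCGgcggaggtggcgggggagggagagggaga
The Nab2 window held none of the motifs searched, which also included the heat shock element (GAANNTTCNNGAA or TTCNNGAANNTTC, in 0.466% of promoters) and the TATA box (TATAAA, in 12.4%). Windows were found for 6 of the 9 genes, namely Egr2, Nab1, Nab2, Ier3, Ier5 and Tle3. Those of Ier3 and Ier5 held none of the motifs either.

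Tle3 rose with Lipofectamine at 2 of its 3 probesets, and all of them were higher after Lipofectamine than after heat shock. At 1449554_at the signal was 7.57, 7.61 and 7.25 in the Lipofectamine arrays, 6.47, 6.60 and 6.55 in the heat shock arrays, and 7.11, 7.11, 6.54, 6.76 and 6.88 in the control arrays. The order was Lipofectamine above control above heat shock, with heat shock and control overlapping. At 1419654_at the values were 6.71, 6.76 and 6.50 with Lipofectamine, 5.86, 5.84 and 6.03 with heat shock, and 6.19, 6.06, 6.24, 5.95 and 6.16 in the control. At 1419655_at they were 8.17, 8.22 and 7.95 with Lipofectamine, 7.67, 7.66 and 7.69 with heat shock, and 7.62, 7.81, 7.92, 7.83 and 7.76 in the control. In each, the lowest Lipofectamine array was above the highest control array.

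With Lipofectamine the changes were 0.60 at 1449554_at (SE 0.134, adjusted p = 0.0235), 0.53 at 1419654_at (SE 0.0996, adjusted p = 0.00951) and 0.33 at 1419655_at (SE 0.0953), where the test was not passed (adjusted p = 0.07). Over heat shock the differences were 0.94 (adjusted p = 0.00362), 0.75 (adjusted p = 0.00238) and 0.44 (adjusted p = 0.0276) in the same order. The first 2 of these held in all 21 alternatives, while that of 0.44 was lost without any 1 of heat shock arrays 1, 2 and 3 and Lipofectamine arrays 1 and 2 (adjusted p between 0.0844 and 0.127). The rise at 1449554_at was lost in 6 of 21 alternatives, namely without control array 4 (0.0591), Lipofectamine array 1 (0.128) or Lipofectamine array 2 (0.0815), with only the 2 groups compared (0.0685), without moderation of the variance (0.0922) and with the replicate number as a block (0.106). That at 1419654_at was lost in 3 of 21, without Lipofectamine array 1 (0.0681), with the block (0.128) and without control arrays 2, 4 and 5 together (0.44, adjusted p = 0.0623), and it was 0.60 without control arrays 1 and 3 (adjusted p = 7.3e-04). The change at 1419655_at passed in 4 of 22, among them without control array 3 (adjusted p = 0.0444) and without control arrays 1 and 3 together (adjusted p = 0.0437). Against the control, heat shock gave −0.34, −0.22 and −0.12, none of which passed, although the change at 1449554_at passed in 3 of 21 alternatives, among them without control array 3 (−0.42, adjusted p = 0.035). At 1419654_at heat shock gave −0.15 when control arrays 1 and 3 were left out, against −0.31 when arrays 2, 4 and 5 were.

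The window before the Tle3 start, shown because this gene rose at more than 1 probeset, held the core TGACG from 116 to 112 bases before the start and no CArG box or EGR site. It lies on the plus strand (RefSeq, GRCm38.p6), with the core in capitals.
Tle3, chr9:61372116-61372365: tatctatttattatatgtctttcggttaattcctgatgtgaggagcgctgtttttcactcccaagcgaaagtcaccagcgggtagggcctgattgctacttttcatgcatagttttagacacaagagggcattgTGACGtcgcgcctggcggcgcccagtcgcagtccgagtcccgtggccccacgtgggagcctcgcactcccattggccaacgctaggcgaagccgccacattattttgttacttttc

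**Figure D2:**
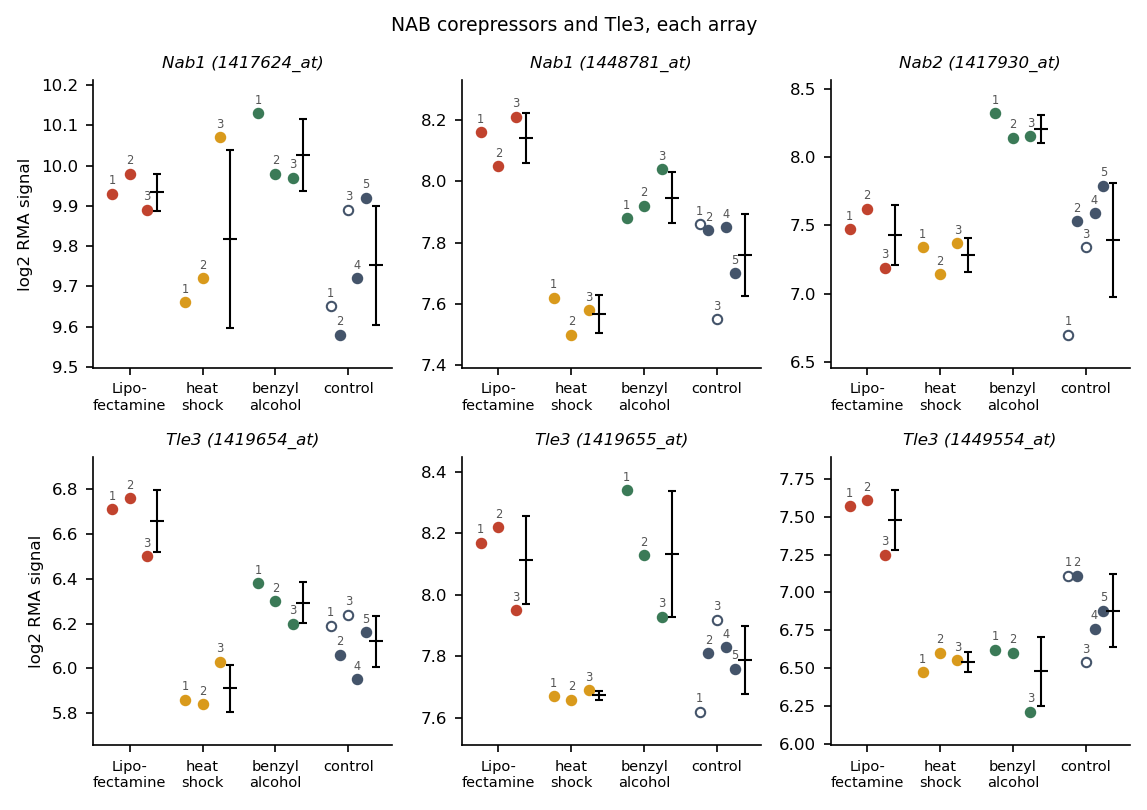
Log2 RMA signal of the Nab1, Nab2 and Tle3 probesets (vertical axis, a scale of its own in each panel) in every Lipofectamine, heat shock, benzyl alcohol and control array, drawn as in the plot of the Egr probesets. The Lipofectamine arrays lie above the heat shock arrays in every Tle3 panel and at Nab1 1448781_at, and Nab2 is highest in the benzyl alcohol arrays (8.14 to 8.32).

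For Ier2 and Ier3 the changes turned on which control arrays were used. Ier3, also called IEX-1, a regulator of cell survival, had a signal (1419647_a_at) of 11.27, 11.52 and 10.94 in the Lipofectamine arrays, 9.31, 9.36 and 9.42 in the heat shock arrays, and 11.02, 8.39, 11.30, 8.50 and 8.30 in the control arrays. Control arrays 1 and 3 stood with the Lipofectamine arrays and the other control arrays well below them, with the heat shock arrays between. The mean was 11.24 ± 0.29 (SD, n = 3) with Lipofectamine, 9.36 ± 0.06 (n = 3) with heat shock and 9.50 ± 1.52 (n = 5) in the control.

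Over all control arrays the change of Ier3 with Lipofectamine was 1.74 (SE 0.614) and did not pass (adjusted p = 0.13). It was 2.84 without control arrays 1 and 3 (adjusted p = 1.5e-10) and 0.08 without control arrays 2, 4 and 5 (adjusted p = 0.892), and it passed without control array 1 (2.12, adjusted p = 0.0265) or control array 3 alone (2.19, adjusted p = 0.0167). With heat shock the change was −0.14 (adjusted p = 0.909), and it passed in opposite directions with the sets of control arrays, at 0.96 without arrays 1 and 3 (adjusted p = 3.2e-05) and −1.80 without arrays 2, 4 and 5 (adjusted p = 5.4e-06). The direct comparison of Lipofectamine with heat shock does not use the control arrays for its difference, which was 1.88 or 3.68-fold with no overlap. It did not pass with the spread of all 11 arrays (adjusted p = 0.136), but did with only the 2 groups compared (adjusted p = 3.2e-07) and without control array 3 (adjusted p = 0.042).

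Ier2, a short-lived nuclear protein made early after stimulation, had the same pattern with a smaller range. Its signal (1416442_at) was 10.02, 10.28 and 9.91 in the Lipofectamine arrays, 9.43, 9.39 and 9.71 in the heat shock arrays, and 9.95, 8.94, 10.11, 9.06 and 8.94 in the control arrays. Again control arrays 1 and 3 lay among the Lipofectamine arrays. The change with Lipofectamine was 0.67 (SE 0.253, adjusted p = 0.158), with 1.09 without control arrays 1 and 3 (adjusted p = 5.0e-06) and 0.04 without control arrays 2, 4 and 5 (adjusted p = 0.951), and it passed without control array 1 (0.81, adjusted p = 0.0464) or 3 (0.85, adjusted p = 0.0261). Heat shock gave 0.11 (adjusted p = 0.823), with 0.53 without arrays 1 and 3 (adjusted p = 0.00381) and −0.52 without arrays 2, 4 and 5 (adjusted p = 0.0559). Lipofectamine exceeded heat shock by 0.56 with no overlap, which did not pass with the spread of all 11 arrays (adjusted p = 0.284) and passed with only the 2 groups compared (adjusted p = 0.00845).

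Ier5, which acts with the phosphatase PP2A and on the heat shock factor HSF1, showed no change that passed, heat shock included. At its brightest probeset (1417612_at) the signal was 7.81, 7.96 and 7.64 with Lipofectamine, 7.78, 7.64 and 8.05 with heat shock, and 7.59, 7.35, 7.35, 7.65 and 7.38 in the control. Of the 6 treated arrays 4 lay above the whole control range, and the other two at 7.64, just under its highest array. Changes were 0.34 with Lipofectamine (95% interval 0.08 to 0.59, adjusted p = 0.133) and 0.36 with heat shock (95% interval 0.10 to 0.61, adjusted p = 0.0945). At 1417613_at they were 0.19 with Lipofectamine (adjusted p = 0.423; 0.12 if control arrays 1 and 3 are left out, 0.30 if control arrays 2, 4 and 5 are) and −0.14 with heat shock (adjusted p = 0.471; −0.21 and −0.04 without the same sets). The remaining probeset (1460009_at) lies at the 4.56 percentile of mean signal. Ier5l, its relative, gave 0.08 with Lipofectamine and 0.13 with heat shock, neither of which passed.

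**Figure D3:**
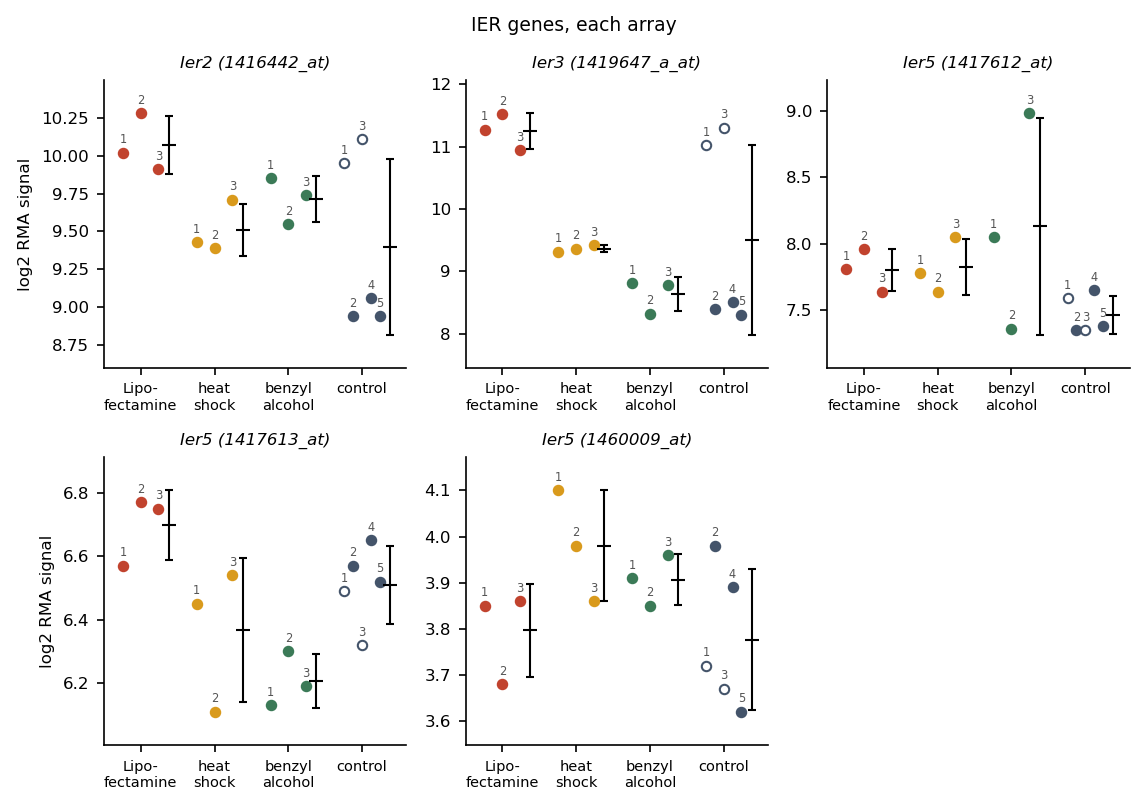
Log2 RMA signal of the Ier2, Ier3 and Ier5 probesets (vertical axis, a scale of its own in each panel) in every Lipofectamine, heat shock, benzyl alcohol and control array, drawn as in the plot of the Egr probesets. Open circles, control arrays 1 and 3, lie with the Lipofectamine arrays for Ier2 (9.95 and 10.11) and Ier3 (11.02 and 11.30), apart from the other control arrays.

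Counted together, 5 of the 15 member probesets rose with Lipofectamine, those of Egr1, Egr2, Nab1 and Tle3, and 0 fell by limma, where 1.78% of all probesets rose and 3.1% fell. At an unadjusted p under 0.05 the counts were 10 higher and 0 lower, where 6.95% of all probesets were higher and 11.8% lower. All 15 changes were above 0, with a median of 0.34 against −0.02 over all probesets tested. The number that rose was between 2 and 8 with single arrays left out, 2 of them without Lipofectamine array 1, and it was 3 with only the 2 groups compared. With heat shock 1 of 15 rose, Egr1, and 0 fell by limma, where 1.05% of all probesets rose and 4.91% fell. At an unadjusted p under 0.05, 2 members were higher and 2 lower, where 7.84% of all probesets were higher and 15% lower. Between Lipofectamine and heat shock, 6 of 15 were higher with Lipofectamine, in the same genes Egr1, Egr2, Nab1 and Tle3, and 0 lower, where 4.42% of all probesets were higher and 1.3% lower. At an unadjusted p under 0.05, 9 members were higher and 0 lower, where 11.2% of all probesets were higher and 9.17% lower. The median difference was 0.44, against −0.05 over all probesets. Probesets of 1 gene are not independent, and these genes were picked with earlier results known, so these counts describe the members only.

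**Figure D4:**
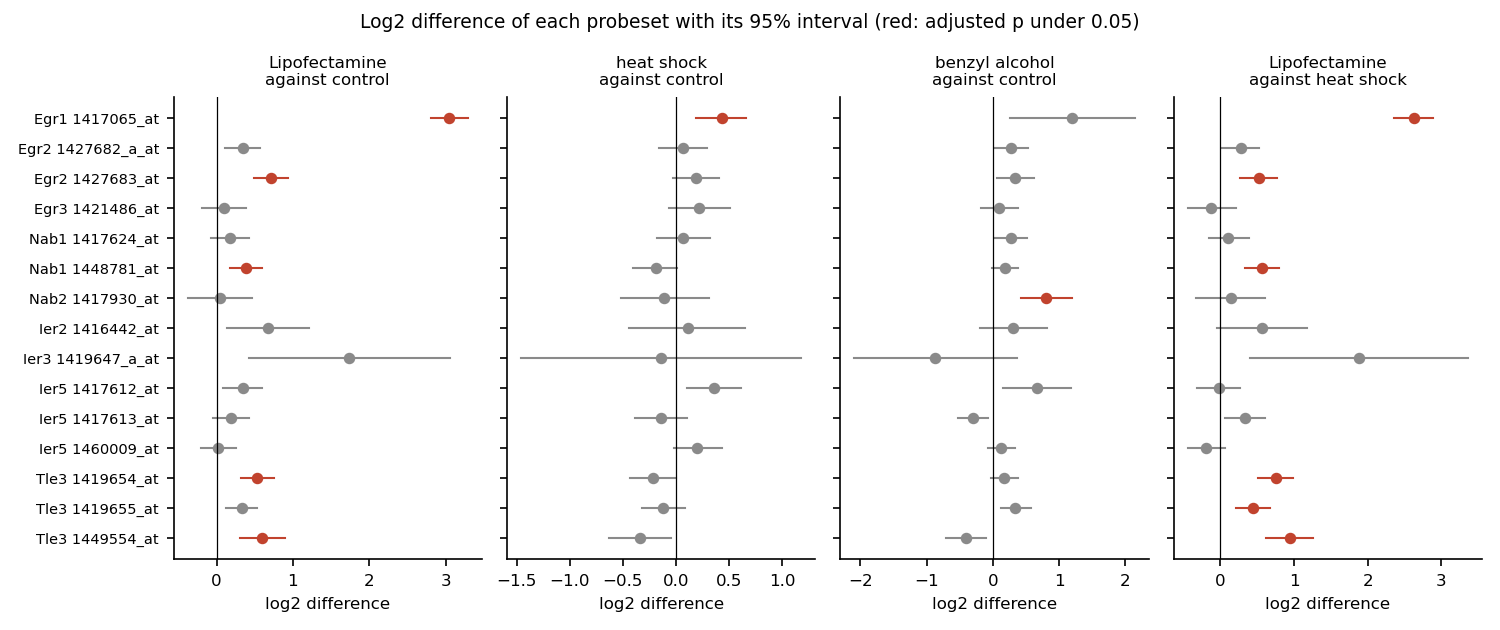
Log2 difference of each member probeset (horizontal axis, a scale of its own in each panel) with its 95% interval from limma, for Lipofectamine, heat shock and benzyl alcohol against control and for Lipofectamine against heat shock, in red where the adjusted p is under 0.05. Egr1 with Lipofectamine stands far from 0 (3.05) with a narrow interval, while the interval of Ier3 is the widest in each panel.

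Benzyl alcohol raised the corepressor Nab2 and no other member by limma. Nab2 was 8.32, 8.14 and 8.15 in the benzyl alcohol arrays, against 6.70, 7.53, 7.34, 7.59 and 7.79 in the control arrays, with no overlap. The rise was 0.81 or 1.76-fold (SE 0.184, adjusted p = 0.0375). It was 0.57 without control arrays 1 and 3 (adjusted p = 0.0183) and 1.18 without control arrays 2, 4 and 5 (adjusted p = 3.2e-04). It was lost in 9 of 24 alternatives, among them the fit of only the 2 groups (adjusted p = 0.175) and those without any 1 of benzyl alcohol arrays 1, 2 and 3, heat shock arrays 1, 2 and 3 and Lipofectamine array 1 (adjusted p between 0.0558 and 0.13). Of all probesets 0.689% rose with benzyl alcohol and 0.698% fell, and of the 15 members 1 rose and 0 fell. At an unadjusted p under 0.05, 7 members were higher and 2 lower, where 5.83% of all probesets were higher and 7.53% lower.

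Egr1 was high in 1 of the 3 benzyl alcohol arrays. It was 7.64, 7.09 and 10.18, so that array 3 reached the level of the Lipofectamine arrays while array 2 lay within the control range. The mean change of 1.20 (SE 0.443) did not pass (adjusted p = 0.222). It was 0.26 without array 3 (adjusted p = 0.658), and without array 2 it was 1.81 and passed (adjusted p = 0.0472). Ier5 at 1417612_at had the same shape, with 8.05, 7.36 and 8.98 and a mean change of 0.67 (adjusted p = 0.212), and it passed without array 2 (1.05, adjusted p = 0.0154). Egr1 and Ier5 exceeded the mean of arrays 1 and 2 in array 3 by 2.82 and 1.28, and no other member did so by more than 1, as against 0.243% of all probesets. This look at array 3 was chosen after its values had been seen. Among 35 other immediate early transcription factors, 5 were higher there by more than 1, namely Jun (3.53), Atf3 (2.50), Btg2 (2.40), Klf4 (1.62) and Fos (1.43), and none was lower by as much. Jun and Atf3 (11.52 and 10.67 in array 3) were also high in untreated control arrays 1 (10.93 and 11.27) and 3 (10.95 and 11.22). In control arrays 2, 4 and 5 they were 7.35 to 7.80 and 6.72 to 6.97. Both were high in all heat shock arrays too, Jun at 11.38, 11.50 and 11.69 and Atf3 at 11.54, 11.27 and 12.04. Fos was not high in control arrays 1 and 3 (7.36 and 7.52). What set this array apart was not tested.

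No further member passed with benzyl alcohol over all control arrays, and Ier2 and Ier3 again turned on the control arrays used. Ier3 was 8.81, 8.32 and 8.78, close to control arrays 2, 4 and 5 and well below arrays 1 and 3. Its change was −0.87 (adjusted p = 0.585) over all control arrays, 0.24 without arrays 1 and 3 (adjusted p = 0.569) and −2.52 without arrays 2, 4 and 5 (adjusted p = 3.8e-07). Ier2, at 9.85, 9.55 and 9.74, gave 0.31 (adjusted p = 0.653), with 0.73 without arrays 1 and 3 (adjusted p = 0.0037) and −0.32 without arrays 2, 4 and 5 (adjusted p = 0.188). Over all probesets the benzyl alcohol arrays had a Pearson r of 0.987 to 0.990 with control arrays 2, 4 and 5, against 0.978 to 0.981 with control arrays 1 and 3. Lipofectamine and heat shock arrays went the other way, with r = 0.978 to 0.982 for control arrays 2, 4 and 5 and 0.985 to 0.990 for control arrays 1 and 3. Nab1 was above every control array at both probesets, with changes of 0.27 and 0.19 that did not pass. Ier5 at 1417613_at was 6.13, 6.30 and 6.19, below every control array, with a change of −0.30 that did not pass (adjusted p = 0.212). Tle3 gave 0.17, 0.34 and −0.40 at 1419654_at, 1419655_at and 1449554_at, and Egr3 0.10, none of which passed.

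**Figure D5:**
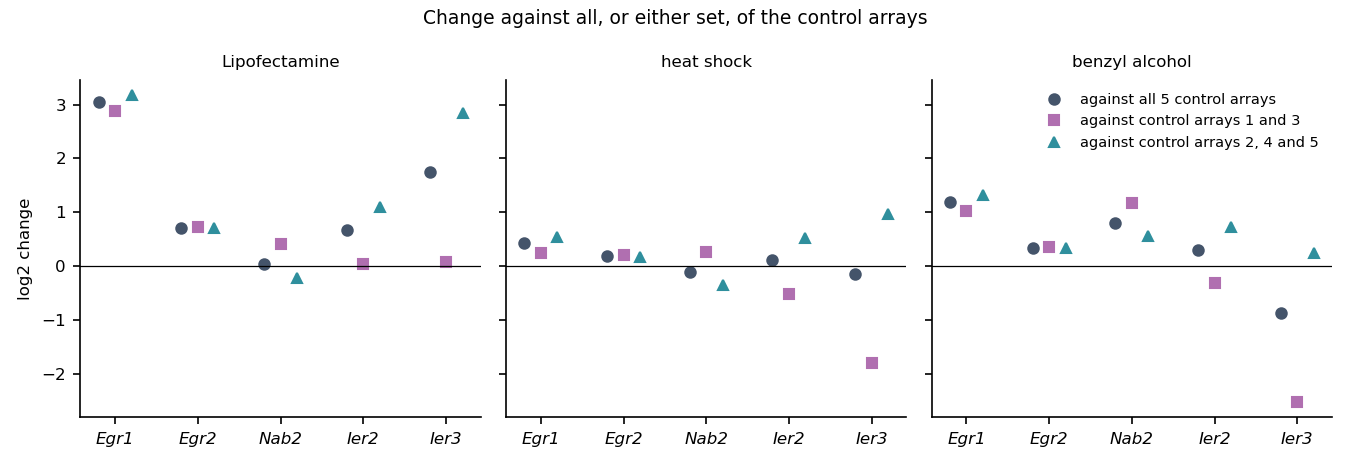
Log2 change of Egr1, Egr2 (1427683_at), Nab2, Ier2 and Ier3 (vertical axis) with Lipofectamine, heat shock and benzyl alcohol, against all 5 control arrays (circles), control arrays 1 and 3 (squares) or control arrays 2, 4 and 5 (triangles). Egr1 and Egr2 with Lipofectamine stay nearly in place (2.88 to 3.17 and 0.70 to 0.73), while Ier3 ranges from 0.08 to 2.84 with Lipofectamine and from −1.80 to 0.96 with heat shock.

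Among other early genes and the partners and targets of the members, Fos rose with Lipofectamine as Egr1 did, while most genes missed the threshold. Among 35 other immediate early transcription factors, each read from its brightest probeset, 9 were higher with Lipofectamine, 2 were lower and 24 missed the threshold, with a median change of 0.34. Over all probesets, 1.78% were higher with Lipofectamine and 3.1% lower. These shares were 1.05% and 4.91% with heat shock, and 0.689% and 0.698% with benzyl alcohol. Fos, partner of Jun in the AP-1 factor, rose by 3.50 (adjusted p = 1.4e-07), with 10.76, 10.98 and 10.55 in the Lipofectamine arrays and 7.36, 6.85, 7.52, 7.16 and 7.44 in the control arrays. Heat shock raised Fos as well (8.51, 8.22 and 8.87, a change of 1.27, adjusted p = 0.00136). Nr4a1, a nuclear receptor, rose by 1.95 with Lipofectamine (its signal in control arrays 1 and 3 was below that in the rest, a difference of −0.67), Maff, a small MAF factor, rose by 0.98, and Klf10, a repressor of growth, fell by 1.14. With heat shock 3 of the 35 rose, 5 fell and 27 did not pass, Myc among the falls (−1.47, adjusted p = 1.2e-05). With benzyl alcohol 31 did not pass and 4 rose, namely Maff (1.62, adjusted p = 2.5e-05), Id1 (1.66, with a difference of −0.96 between control arrays 1 and 3 and the rest), Klf10 (0.86) and Hes1 (0.65).

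Of 28 genes reported elsewhere as EGR targets, 1 rose with Lipofectamine and 27 did not pass, with a median change of 0.06. That gene was Cdkn1a, the cell cycle inhibitor p21, at 1.23 (adjusted p = 0.043), whose signal in control arrays 1 and 3 exceeded that in the rest by 1.38. With heat shock Id3, an inhibitor of helix-loop-helix factors, fell by 1.83 (adjusted p = 0.00621) and 27 did not pass, and its signal in control arrays 1 and 3 differed from that in the rest by −1.19. With benzyl alcohol 3 rose, the growth factor gene Pdgfa (1.24, adjusted p = 8.7e-04), Gadd45b (0.98) and the death gene Bcl2l11 (0.97), and 25 did not pass. Over all probesets, 1.78% rose with Lipofectamine, 4.91% fell with heat shock and 0.689% rose with benzyl alcohol. Times later than the recoveries given above were not analysed here, and any bearing of time on these target genes was not tested.

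In the pathway upstream, 19 genes of SRF, its ternary complex partners and the ERK cascade were measured. Of these 2 rose with Lipofectamine, 1 fell and 16 missed the threshold (median 0.07). Over all probesets, 1.78% rose and 3.1% fell with Lipofectamine, and 4.91% fell with heat shock. Between the treatments, 4.42% of all probesets were higher with Lipofectamine and 1.3% lower. Spry2, an ERK feedback inhibitor, rose by 0.78 (adjusted p = 0.0025) and Creb1 by 0.51 (adjusted p = 0.0381), and the ERK-driven kinase gene Rps6ka3 fell by 0.88 (adjusted p = 0.00241). With heat shock 5 fell and 14 did not pass, among the falls Spred2, another inhibitor of the cascade (−0.86), the ternary complex factors Elk3 (−0.99, with a difference of −0.92 between control arrays 1 and 3 and the rest) and Elk4 (−0.46) and the SRF coactivator Mrtfa (−0.43). Between the treatments 4 were higher after Lipofectamine than after heat shock, namely Spred2 (1.20), Dusp6 (1.20), a phosphatase that turns ERK off, Spry2 (1.13) and Spred1 (0.69), and 1 was lower.

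Among 14 other TLE genes and Groucho partners, 2 rose with Lipofectamine and 12 did not pass. They were Tle1, a close relative of Tle3 (0.51, adjusted p = 0.013), and the repressor Hes1 (0.48, adjusted p = 0.0239). Heat shock gave no call in this list by limma, with changes between −1.05 and 0.32. Benzyl alcohol raised Hes1 (0.65) and lowered Tle5, a short Groucho protein (−0.70, adjusted p = 0.0201). Of 21 partners of the NAB and IER proteins, 3 fell with Lipofectamine and 18 did not pass, namely Mta1 (−0.47), Hdac2 (−0.55), both of the NuRD corepressor complex, and the phosphatase gene Cdc25b (−0.85, with a difference of −0.79 between control arrays 1 and 3 and the rest). Gatad2a, another NuRD gene, fell with heat shock (−0.42, adjusted p = 0.0334), and Mcl1, a survival gene, rose with benzyl alcohol (0.53, adjusted p = 0.0482). Over all probesets, 1.78% rose and 3.1% fell with Lipofectamine, 1.05% and 4.91% with heat shock, and 0.689% and 0.698% with benzyl alcohol.

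Over the 14 arrays the probesets most like Egr1 in their pattern were those of Vasn, a membrane protein that binds TGF-beta, with Pearson r = 0.964 and 0.961, and Fos with r = 0.926. After the group means were taken out these were 0.875, 0.898 and 0.849. Within groups Egr1 varied mostly among the benzyl alcohol arrays (SD 1.65, against 0.09 to 0.17 in the other groups). There array 3 was highest for Egr1 (10.18) and Fos (9.28). One of the Vasn probesets (1427894_at) read 8.25, 8.25 and 8.04 with Lipofectamine, between 7.62 and 7.72 with heat shock, 7.53, 7.57 and 8.27 with benzyl alcohol, and between 7.34 and 7.61 in the control, so that benzyl alcohol array 3 again stood with the Lipofectamine arrays. For Ier2 the most alike were Atp6v1h, a subunit of the vacuolar proton pump (r = 0.961), Tsc22d1 (0.941) and Rhob, a small GTPase that is itself made early (0.935). With group means removed these were 0.964, 0.936 and 0.964, so that the likeness lay within groups, where the control arrays differ most. For Tle3 (1419655_at) they were Map2k3, an activator of the p38 kinase (0.937 and 0.914 at its probesets), and Oaf (0.928), with 0.759, 0.628 and 0.684 after removal. These correlations describe arrays that share groups and normalization, and carry no test.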

How the data were processed

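The 14 arrays were scanned and read in GCOS 1.2, and the authors deposited log2 signals made with RMA, a method of background correction, normalization and summary over probes. The version of RMA, and whether all arrays were processed together, are not given in the sources used here. Array medians lay between 7.03 and 7.12 on the log2 scale, and with 3 treated arrays in each group their number limits the precision. Detection calls were not used, so signals near the floor cannot be told from background.

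From these values, 64 Affymetrix control probesets were left out and 22626 probesets were tested with limma 3.58.1 in R 4.3.3. Of these 20380 carry 1 symbol, 691 several and 1555 none. One fit held the 11 arrays of Lipofectamine, heat shock and control cells, and another all 14 arrays, for benzyl alcohol against control. Benjamini-Hochberg adjustment ran over all of these probesets, with a threshold of 0.05, and the code was tested on simulated data. Arrays were grouped by their labels, and the main fits did not use the replicate numbers to pair the samples. All probesets of the 9 genes are given. From each list, read from the brightest probeset of a gene, up to 4 genes that passed are named in each comparison, by smallest p, and for Egr1, Ier2 and Tle3 the 3 probesets of highest Pearson correlation. The members and lists were chosen with earlier results of these data known, and the lists were written by hand. Motifs were searched in RefSeq promoters (GRCm38.p6) in the 250 bases before a start.

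The alternatives were other samples in the fit, a variance trend, no moderation, array weights, removal of dim probesets, renewed normalization, the replicate number as a block, an unadjusted p under 0.001, and arrays left out.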

Additional observations from a re-analysis of the deposited data

Results flagged for a closer look

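For 1 probeset, Egr2 at 1427683_at, a single control array lay apart from the rest of its group. Control array 2 read 5.00 on the log2 scale, against 4.75 to 4.81 in the other control arrays, and its gap to the nearest of them took up 0.768 of the range of the group. Among the 15 control groups examined this was the 1 that stood out, and chance sets apart about 1 group in 20. The Lipofectamine arrays (5.32 to 5.67) lay above this array too.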

How the results depend on the processing

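Of the 5 rises of member probesets with Lipofectamine, that of Egr1 held under every alternative run. The count was 3 with only the 2 groups compared and 3 without moderation of the variance, 10 with array weights, 2 with the dimmer probesets removed, 8 and 3 without the first (arrays 1 and 3) and second (arrays 2, 4 and 5) set of control arrays, and 2 to 8 with 1 array left out. Removal of dim probesets took Egr2 (1427683_at) and Tle3 (1419654_at and 1449554_at) out of the test. The called probesets of Egr1 and Nab1 stayed in it and kept their calls. The single member called with heat shock, a rise, became 0 with only the 2 groups, with all 14 arrays, without moderation, with equal array medians and at an unadjusted p under 0.001, 4 with array weights (2 higher, 2 lower), 2 when quantile normalized again, 4 without control arrays 1 and 3 (3 higher, 1 lower), and 0 to 2 with 1 array left out. Without control arrays 2, 4 and 5 the 1 call was a fall. The single member called with benzyl alcohol, also a rise, became 0 with only the 2 groups and without moderation, 2 with array weights, when quantile normalized again, without control arrays 1 and 3 and without control arrays 2, 4 and 5 (1 higher, 1 lower), and 0 to 2 with 1 array left out. Of all 22626 probesets, array weights called 6875 with Lipofectamine, 6377 with heat shock and 739 with benzyl alcohol. Without control arrays 1 and 3 the calls were 4248, 4930 and 686. Higher member counts under these settings thus came with higher counts over the whole array. The 6 differences between Lipofectamine and heat shock became 3 with the dimmer probesets removed, and 4 to 7 with 1 array left out. The same Egr2 and Tle3 probesets had left the test with the dimmer probesets, and the other calls held.

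Over all probesets, 1104 passed with Lipofectamine, 1349 with heat shock, 314 with benzyl alcohol and 1294 between Lipofectamine and heat shock. In the same order of comparisons, array weights, which gave Lipofectamine array 1 a weight of 10.1, brought 6875, 6377, 739 and 9016. Without moderation there were 357, 326, 159 and 483, and without control arrays 1 and 3 there were 4248, 4930, 686 and 3080. At an unadjusted p under 0.001 the counts were 513 with Lipofectamine, 549 with heat shock and 652 between them. With only the 2 groups they were 456 with Lipofectamine, 81 with benzyl alcohol and 2900 between Lipofectamine and heat shock. Without control arrays 2, 4 and 5 they were 841 with heat shock, 2826 with benzyl alcohol and 2620 between Lipofectamine and heat shock. With 1 array left out they ran from 255 to 2262 with Lipofectamine, 259 to 2658 with heat shock, 131 to 441 with benzyl alcohol and 424 to 1767 between Lipofectamine and heat shock.

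Of 18 pairs of arrays with the same replicate number, 3 had deviations from their group means that correlated above 0.1 (Pearson r from −0.56 to 0.442). Pairs of unlike number were not set beside them, so this look cannot exclude a pairing. With the replicate number as a block, 186 probesets passed with Lipofectamine, 1 of them a member, and 192 with heat shock, 0 of them a member. Heat shock then gave 0.09 for Nab2 and −0.16 for Ier2.

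The direction turned for several members, none of which was called over all control arrays. With Lipofectamine, Nab2 was −0.05 with array weights, −0.21 without control arrays 1 and 3 and −0.13 to 0.16 with 1 array left out. Ier5 (1460009_at) was −0.04 without control arrays 1 and 3 and −0.02 to 0.08 with 1 array left out, and Egr3 was −0.03 to 0.25. With heat shock, Ier3 was 0.48 with array weights, 0.96 without control arrays 1 and 3 and −0.44 to 0.31 with 1 array left out. Without control arrays 2, 4 and 5, heat shock gave 0.26 for Nab2 and −0.52 for Ier2, and with 1 array left out −0.01 to 0.29 for Ier2 and −0.06 to 0.15 for Nab1 (1417624_at). With benzyl alcohol, Ier3 was 0.24 without control arrays 1 and 3, and Ier2 was −0.32 without control arrays 2, 4 and 5. Between Lipofectamine and heat shock, Ier5 (1417612_at) was −0.11 to 0.09 and Egr3 −0.25 to 0.03 with 1 array left out. Causes were not tested. Dim probesets of Egr2 and Ier5 limit what can be said of them.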
